A study of Mus musculus with 3 samples.

Results

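The Stfa3-positive suprabasal keratinocytes of mouse skin are cells of the upper epidermis selected on at least 2 counts of Stfa3, a stefin A gene. They were sought in 3 single-cell libraries of dissociated whole skin from 9-week-old C57BL/6 mice, prepared with the Singleron GEXSCOPE kit, with 1 library for each condition. The UV plus vitamin D library came from irradiated skin given the agent labelled VD (vitamin D in the series title), the UV library from irradiated skin given saline, and the control library from unirradiated skin given saline. The labels give no UV dose, time after irradiation, vitamin D dose or number of animals for a library, and all mice were of the same strain.

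Cells were chosen in 2 steps. A suprabasal cell had at least 200 detected genes, at most 20% mitochondrial counts, at least 0.5% of its counts from Krt1, Krt10 and Krtdap together, and no count of Krt79 (upper follicle), Ptprc (leukocytes) or Col1a2 (fibroblasts). A suprabasal cell with at least 2 Stfa3 counts was called positive. These conditions gave 61 positive cells from UV plus vitamin D skin, 348 from UV skin and 41 from control skin, 450 in all among 12144 suprabasal cells and 20728 cells of any type. The UV library therefore held 77.3% of them. They were set against the suprabasal cells of the same library with no Stfa3 count, which numbered 4352, 995 and 5867 in the UV plus vitamin D, UV and control libraries.

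Stefins are small cytosolic inhibitors of cysteine proteases such as the cathepsins. The mouse carries a cluster of closely related stefin A genes, where the human genome has a single stefin A gene that is part of the cornified envelope. Suprabasal keratinocytes leave the basal layer, exchange Krt5 and Krt14 for Krt1 and Krt10, and later make the granular proteins loricrin and filaggrin; Krt6a, Krt6b, Krt16 and Krt17 are the keratins that skin is known to switch on after wounding and other injury.

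The promoter letters of the genes that lead the contrast are shown because the stefin A genes are high in the same cells. Each line is the 150 bases before the RefSeq start of the gene, 5′ to 3′ on the gene's own strand (GRCm38.p6). Capitals in the stefin genes mark a block, TTTAAAACC, chosen after the windows had been read. Capitals in Sprr1b, a cornified envelope precursor, and Rptn, repetin, mark TGANTCA, the AP-1 motif. Both motifs were searched on both strands and do not overlap each other.
Stfa3: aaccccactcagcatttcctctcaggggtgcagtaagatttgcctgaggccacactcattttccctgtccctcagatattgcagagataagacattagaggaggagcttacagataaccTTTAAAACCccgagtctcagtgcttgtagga
Stfa1: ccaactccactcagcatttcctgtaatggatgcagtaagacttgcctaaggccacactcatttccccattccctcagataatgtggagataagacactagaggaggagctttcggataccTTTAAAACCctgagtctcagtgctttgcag
Stfa2: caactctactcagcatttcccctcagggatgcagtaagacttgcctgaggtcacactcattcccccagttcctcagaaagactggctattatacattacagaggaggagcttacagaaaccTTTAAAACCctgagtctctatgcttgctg
Sprr1b: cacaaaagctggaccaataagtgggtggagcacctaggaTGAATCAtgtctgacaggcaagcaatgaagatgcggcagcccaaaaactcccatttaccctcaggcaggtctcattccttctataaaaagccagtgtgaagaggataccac
Rptn: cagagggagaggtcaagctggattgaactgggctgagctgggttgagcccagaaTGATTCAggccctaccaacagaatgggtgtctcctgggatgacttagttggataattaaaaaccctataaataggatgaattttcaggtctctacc

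The windows lie at chr16:36455393-36455542 on the minus strand for Stfa3, chr16:36276998-36277147 on the plus strand for Stfa1 and chr16:36408364-36408513 on the minus strand for Stfa2. Those of the other two are chr3:92438780-92438929 on the minus strand for Sprr1b and chr3:93393549-93393698 on the plus strand for Rptn. The Stfa3 window was 84.3% identical to that of Stfa1 and identical to that of Stfa2 in 124 of 155 aligned columns, gaps included, and 50.9% identical to that of Sprr1b. The block began 31, 30 and 29 bases before the start of Stfa3, Stfa1 and Stfa2. It stood in 6 of the 7 windows of stefin A genes in the table (Csta1 was without it) and in 67 of all 32851 windows, or 0.204%. TGANTCA stood in 4.24% of all windows and in none of the 3 stefin windows printed. Of the genes at least 2-fold higher in positive cells of the UV library, 68 had a window by symbol, and 9 of these (13.2%) held TGANTCA; it was held by 8 of 113 lower genes (7.08%) and by 210 of the 5012 genes measured (4.19%). BC100530, Krt6a, Krt6b, Krt16, Gsdmc and Tdh were not matched by symbol. A match is a run of letters and not a site shown to be bound.

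Because stefin A genes are closely related, reads can be shared between some of them. Stfa3 had no stretch of 50 bases in common with any of the other 7 stefin A genes compared in the GENCODE mouse transcripts. Stfa1 had 131 of its 710 distinct stretches in common with BC100530, a further stefin A gene of the cluster, and Stfa2 had 62 of 422 in common with Stfa2l1. BC100530 had 191 of 570 (33.5%) in common with other stefin A genes, 92 of them with BC117090, and Stfa1 153 of 710 in all. The values of Stfa1, BC100530 and Stfa2 are uncertain to that extent.

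The deposited values are counts per gene and barcode, and CPM below is the counts of a gene summed over a group of cells, per 1000000 counts of that group. Median totals of positive cells were 9051, 11568 and 7159 counts in the UV plus vitamin D, UV and control libraries, against 10355, 10463 and 7382 counts in the Stfa3-zero cells. Median mitochondrial percentages were 2.38%, 2.44% and 3.01% in positive cells and 2.06%, 2.27% and 2.71% in Stfa3-zero cells. Between 37 and 66 barcodes were shared by any 2 libraries, and none of them was positive in both. With 1 library a condition no difference was tested, and the intervals given are 95% intervals that cover counting error only, exact for shares and for ratios of CPM and approximate, on a log scale, for ratios of shares. The cells were chosen by Stfa3, so every difference between positive and Stfa3-zero cells is a description of the chosen cells.

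Stfa3-positive cells were a large minority of the suprabasal cells in the UV library and rare in the other libraries. They made up 1.33% of suprabasal cells after UV plus vitamin D (interval 1.02% to 1.71%), 22.7% in the UV library (20.6% to 24.8%) and 0.681% in the control library (0.489% to 0.923%). The share in UV was 33.3 times that in control (24.2 to 45.8). The share in UV plus vitamin D was 17.0 times lower than in UV (13.1 to 22.2) and 1.95 times that in control (1.32 to 2.90). The 3 intervals do not overlap, but differences between mice and between preparations cannot be told apart from the treatments.

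A threshold of 2 counts depends on depth. After each cell was thinned to 3000 counts the shares were 0.392%, 13.1% and 0.167% in UV plus vitamin D, UV and control, with 45 shallower control cells left out. The order of the libraries was kept, with UV plus vitamin D 2.35 times control (1.08 to 5.08) on 18 and 10 positive cells. The thinned share in UV was 78.2 times that in control (41.5 to 147.2). In UV plus vitamin D it was 33.35 times lower than in UV (20.7 to 53.8). Within the UV library, the share was between 18.8% and 26.8% in 4 equal groups of suprabasal cells by total count.

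Positive cells of the UV library also carried more Stfa3 each. The median positive cell had 2 Stfa3 counts in UV plus vitamin D, 6 in UV and 2 in control, and the highest had 27, 199 and 31. Of the positive cells, 1 of 61, 85 of 348 and 1 of 41 had at least 20 counts. Summed Stfa3 over all suprabasal cells was 7.13, 334 and 4.28 CPM.

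Stfa3 was not limited to the suprabasal gate. In the UV library 851 cells of any kind had at least 2 counts; 176 were below the keratin gate, and of the 675 within it 227 had a Krt79 count, 130 a Col1a2 count and 25 a Ptprc count. Among cells below the keratin gate with at least 0.5% of counts from Krt14 and Krt5, a gate for basal keratinocytes, 4.39%, 27.4% and 1.21% reached 2 Stfa3 counts in UV plus vitamin D, UV and control. Summed Stfa3 in those cells of the UV library was 686 CPM. The suprabasal positive cells thus held 44.1% of the UV library's Stfa3 counts, and 35.7% and 28.1% in the UV plus vitamin D and control libraries.

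Free RNA gives counts in cells that do not make a transcript, so a fibroblast gate and an immune gate were read alongside. The immune gate did not exclude neutrophils, which carry stefin A genes in mice. In the UV library a fibroblast gate had 0.461% of 434 cells with at least 2 counts (median total 6335) and an immune gate 1.87% of 482 cells (median total 4467), both below the suprabasal 22.7%. At the looser threshold of 1 count the same gates had 7.60% and 8.30%, against 35.2% of suprabasal cells. No cell of either gate had a Stfa3 count in the UV plus vitamin D or control library; with 71 to 151 cells in a gate a limit of 3 counts allows shares of up to 1.99% to 4.23%, which is above the suprabasal shares of those libraries. Whether free RNA accounts for some positive cells there was not tested.

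**Figure D1:**
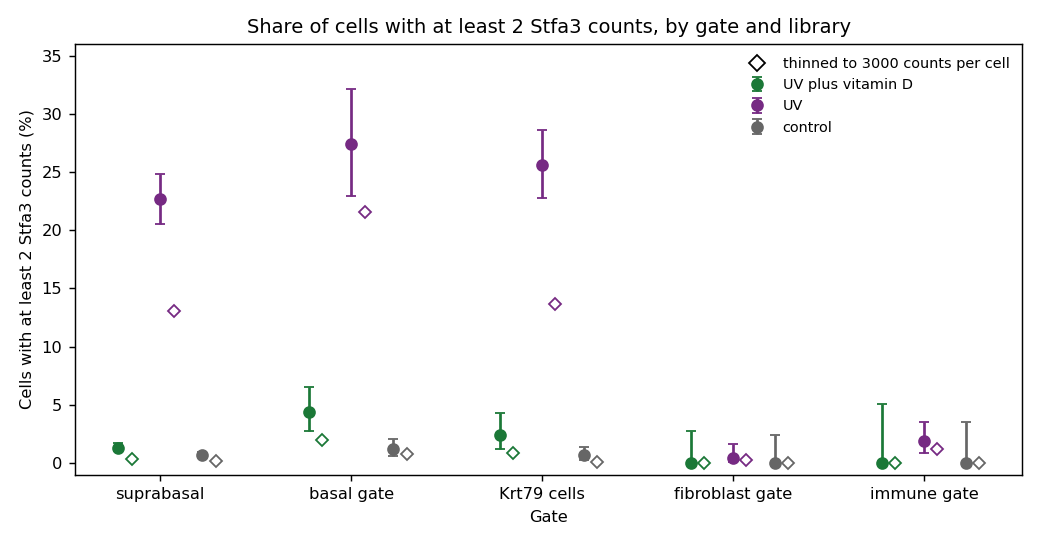
Share of cells with at least 2 Stfa3 counts (y axis, percent) by gate (x axis) in each library; filled circles are the deposited counts with exact 95% binomial intervals and open diamonds the shares after thinning each cell to 3000 counts. In the UV library the suprabasal, basal and Krt79 gates lie between 22.7% and 27.4% as deposited, and the fibroblast and immune gates at 0.461% and 1.87%. After thinning, the suprabasal, basal and Krt79 gates of that library lie at 13.1%, 21.6% and 13.6%.

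The UV library has the most positive cells, and they differed 2-fold or more from its Stfa3-zero cells in a small share of genes. Of 6462 genes with enough counts, 92 (1.42%) were at least 2-fold higher and 148 (2.29%) at least 2-fold lower in positive cells, so 38.3% of the calls were higher; with TMM scaling, which moved log2 ratios by 0.13, the counts were 114 and 98 and the share of higher calls 53.8%. The median log2 ratio over all genes, with 10 CPM added to both sides, was -0.14. The 12 highest log2 ratios were those of BC100530, Krt6b, Stfa1, Rptn, Krt6a, Stfa2, Sprr2a3, Wfdc12, Tdh, Gsdmc, Krt14 and Serpinb3a. The 12 lowest ranked were those of Btc, Ifitm6, Cd82, Scgb1a1, Lce1m, Trim2, Abca5, Nectin3, Lce1c, Rab32, Prss23 and Id3.

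Stefin A genes led the list. Of the 4 stefin A genes with enough counts other than Stfa3, 3 were at least 2-fold higher, against 1.42% of all genes, and the list median was 3.37 on the log2 scale. BC100530 was at 7168 CPM in positive cells and 225 CPM in Stfa3-zero cells, a ratio of 31.9 (30.6 to 33.2). Stfa1 was at 780 CPM in positive cells and 43.1 CPM in Stfa3-zero cells, a ratio of 18.1 (16.4 to 19.9). Stfa2 was at 73.8 and 1.71 CPM, a ratio of 43.2 (27.2 to 72.8), with 15.1% of its positive counts in a single cell.

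Csta1, the remaining measured stefin A gene, was nearly level at 708 CPM in positive cells and 622 CPM in Stfa3-zero cells. Of the 9 measured genes of stefin B, other cystatins and cysteine cathepsins none was 2-fold apart, beside 1.42% of all genes higher and 2.29% lower. Cstb, stefin B, was at 2134 CPM in positive cells and 2040 CPM in Stfa3-zero cells. Ctsl, cathepsin L, which stefins inhibit, was at 451 and 622 CPM.

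The co-occurrence held cell by cell. A count of BC100530 was present in 92.5% of positive cells and 58.2% of Stfa3-zero cells, and a count of Stfa1 in 70.7% and 21.2%. After thinning these were 83.3% and 30.3% for BC100530, and 174 of 348 and 93 of 995 cells for Stfa1. Of the 246 positive cells with Stfa1, 95.9% also had BC100530. The median positive cell had 3105 CPM of BC100530 and the highest 69992 CPM, against 73.1 and 9615 CPM in Stfa3-zero cells, so the ranges overlapped, although the upper quartile of positive cells, 11093 CPM, was beyond every Stfa3-zero cell.

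Of the 4 wound keratins, 3 were at least 2-fold higher, beside 1.42% of all genes, with a list median of 2.40. Krt6b was at 793 CPM in positive cells and 19.9 CPM in Stfa3-zero cells, a ratio of 39.9 (34.8 to 46.0). Krt6a was at 547 and 40.7 CPM, a ratio of 13.4 (12.1 to 14.9). Krt16 was at 1574 and 615 CPM, a ratio of 2.56 (2.47 to 2.65), and Krt17 at 737 and 528 CPM, which is under 2-fold.

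Krt6a and Krt6b were counted in a minority of the positive cells. Krt6b was counted in 100 of the 348 positive cells and Krt6a in 150, with both in 79. Krt16 was counted in 82.2% of positive cells and 63.1% of Stfa3-zero cells, so it marked the positive cells less sharply than Krt6a, which was in 43.1% and 11.3%. The median positive cell had no Krt6a or Krt6b count.

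Krt14, the basal keratin, was higher too. It was at 840 CPM in positive cells and 171 CPM in Stfa3-zero cells, a ratio of 4.91 (4.64 to 5.19). Krt5, its partner, was at 298 and 156 CPM, a ratio of 1.91. Of the 13 basal and adhesion genes 8 were measured, and Krt14 was the one at least 2-fold higher while Krt15 was lower, at 26.4 CPM in positive cells and 57.3 CPM in Stfa3-zero cells; the list median was -0.17. The 8 basal markers together summed to 1296 CPM in positive cells and 540 CPM in Stfa3-zero cells.

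The positive share was 38.0% in the 245 cells with the most Krt14 and Krt5 per count, whose median total was 6578 counts, and between 19.6% and 20.1% in the 3 groups with less or none. Krt14 was counted in 67 of the 100 positive cells with Krt6b and in 37.1% of those without it. In the 158 positive and 542 Stfa3-zero cells with no Krt5 or Krt14 count, Krt6b was at 236 and 20.7 CPM, a ratio of 11.4, and Krt6a at 238 and 31.7 CPM, a ratio of 7.53. In the same cells Stfa1 was 10.5-fold, Gsdmc 6.74-fold, BC100530 22.4-fold and Rptn 25.8-fold higher, and Sprr2a3 8.57-fold. Sprr1b was 2.73-fold higher, while Krt16 was under 2-fold, at a ratio of 1.94 (1.84 to 2.04). Whether cell pairs caught under a single barcode take part in the Krt14 values was not tested.

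**Figure D2:**
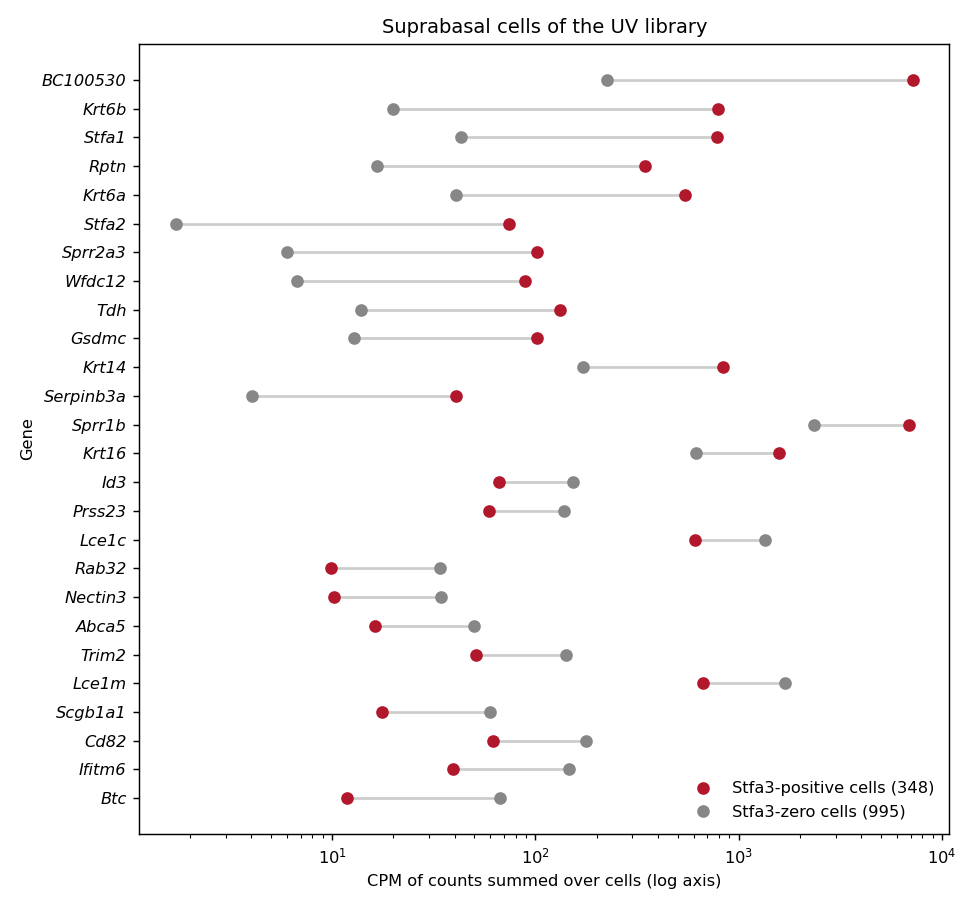
CPM of counts summed over the 348 Stfa3-positive (red) and 995 Stfa3-zero (grey) suprabasal cells of the UV library (x axis, log scale) for the 4 other markers and the genes with the highest and lowest ranked log2 ratios (y axis). BC100530 stands at 7168 and 225 CPM at the top, and Btc at 11.9 and 66.7 CPM at the bottom.

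Genes of the cornified envelope differed within their families. Of 10 measured small proline-rich genes and involucrin, 4 were at least 2-fold higher and none lower, beside 1.42% and 2.29% of all genes, with a list median of 0.86. Sprr1b, a precursor that cross-linking builds into the envelope, was at 6889 CPM in positive cells and 2342 CPM in Stfa3-zero cells, a ratio of 2.94 (2.89 to 2.99). Sprr2a3 was at 102 and 6.02 CPM, a ratio of 17.0 (13.1 to 22.3). Sprr1a, the neighbouring relative of Sprr1b and one of the most counted genes of these cells, was at 30133 CPM in positive cells and 30150 CPM in Stfa3-zero cells, and Ivl, involucrin, at 1592 and 1408 CPM.

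The fused S100 genes, whose long repeat proteins fill the granular layer, differed among themselves too. Rptn was at 348 CPM in positive cells and 16.5 CPM in Stfa3-zero cells, a ratio of 21.0 (18.0 to 24.7). Flg, filaggrin, was at 1463 and 445 CPM, a ratio of 3.29 (3.17 to 3.42). Flg2 was instead at 267 CPM in positive cells and 520 CPM in Stfa3-zero cells, and Hrnr at 736 and 796 CPM. Rptn was counted in 88 positive cells, 85.2% of which had Flg and 38 of which had Krt6b.

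Of the 20 measured late cornified envelope genes and loricrin, 3 were at least 2-fold higher and 2 lower. Those higher were Lce3d, Lce3e and Lce3f, named after their values were seen; Lce3f was at 111 and 6.92 CPM, with 5.46% of positive cells having a count and 27.3% of the positive counts in a single cell. Those lower were Lce1m, at 669 CPM in positive cells and 1689 CPM in Stfa3-zero cells, and Lce1c, at 607 and 1345 CPM. The 77 positive cells with exactly 2 Stfa3 counts carried most of these levels: Lce1m was at 2836 CPM in them and at 61.0, 45.6 and 39.7 CPM in cells with 3 to 4, 5 to 19 and at least 20 counts. Lce1c was at 2255 CPM in cells with 2 counts and at 62.3, 232 and 49.9 CPM in the same 3 groups. Lor, loricrin, was at 1718 CPM in positive cells and 2586 CPM in Stfa3-zero cells, with medians over cells of 97.6 and 107 CPM. The positive share was 21.6% in cells with no Lor count and between 22.1% and 24.0% in the 3 groups with it. The highest of these groups ran from 303 to 63324 CPM, so the cells richest in Lor were not set apart.

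Suprabasal markers were present in both groups. All 13 suprabasal markers outside the gate were detected, summing to 73649 CPM in positive cells and 65580 CPM in Stfa3-zero cells. Krt1, which the gate used, was at 7935 CPM in positive cells and 2908 CPM in Stfa3-zero cells, and Krt10 at 16250 and 14978 CPM. Krt77, a type II keratin of suprabasal cells like Krt1, was at 3749 and 6959 CPM, a ratio of 0.539 (0.530 to 0.548).

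Markers of other cell types were read in the same cells, and their part in the results was not tested. The 14 neutrophil markers were read because neutrophils carry stefin A genes in mice; 8 were listed, and they summed to 24.2 CPM in positive cells and 15.2 CPM in Stfa3-zero cells, with Csf3r and Mpo at 0 in both. Of the other listed ones, Trem1 was at 0 in positive cells and 0.36 CPM in Stfa3-zero cells, and Itgam at 0.97 and 2.25 CPM. Cxcr2 was at 13.3 and 10.6 CPM, Mmp9 at 6.53 and 1.17 CPM, Lcn2 at 3.15 and 0.81 CPM and Mmp8 at 0.24 and 0 CPM. The 6 fibroblast markers summed to 102 and 90.3 CPM and the 14 immune markers to 164 and 240.5 CPM, and the 9 upper follicle markers to 4492 and 4032 CPM. The 4 haemoglobin genes summed to 1627 and 375 CPM, and a single cell held 57.3% of the positive counts of Hba-a1. In UV plus vitamin D and control the fibroblast markers were lower than in UV, at 15.6 and 13.6 CPM in positive and 16.8 and 20.6 CPM in Stfa3-zero cells. The immune markers were lower too, at 49.5 and 54.4 CPM and at 79.1 and 112 CPM. The upper follicle markers in positive cells, at 5910 and 3721 CPM, lay above and below the UV value.

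Wfdc12, Tdh, Gsdmc and Serpinb3a were also among the 12 highest ranked ratios. Wfdc12, a whey acidic protein inhibitor, was at 89.3 CPM in positive cells and 6.74 CPM in Stfa3-zero cells, a ratio of 13.2 (10.3 to 17.2). Tdh, threonine dehydrogenase, was at 131 and 13.9 CPM, a ratio of 9.43. Gsdmc, a gasdermin, the family of pore formers, was at 102 and 12.8 CPM, a ratio of 8.0, and was counted in 46.0% of positive cells and 9.55% of Stfa3-zero cells. Serpinb3a, a serpin of squamous epithelia, was at 40.6 and 4.04 CPM, a ratio of 10.1 (7.20 to 14.3).

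The protease inhibitors outside the stefins were mixed. Of 11 measured serpins and other inhibitors 5 were at least 2-fold higher, Serpinb12, Serpinb1a, Serpinb3a, Serpinb6c and Wfdc12, and none lower, beside 1.42% and 2.29% of all genes. Serpinb2, the most counted of them, was at 10520 CPM in positive cells and 12075 CPM in Stfa3-zero cells. Of 21 measured genes of envelope cross-linking, proteases and barrier lipids, 3 were higher: Tgm3, a cross-linking transglutaminase, at 78.1 and 18.1 CPM, and Casp14, the caspase of cornification, at 398 and 176 CPM, and Klk13, a kallikrein protease. Fabp5, the epidermal fatty acid binding protein, was at 2897 and 863 CPM.

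Some alarmins, cytokines and antimicrobial genes were past 2-fold, to be read beside the 1.42% of all genes that were higher and 2.29% lower. S100a8 was at 152 CPM in positive cells and 2.61 CPM in Stfa3-zero cells, but 44.0% of the positive counts came from a single cell and 13.2% of positive cells had any. Of 18 measured cytokines and chemokines 2 were higher: Il33, an alarmin of the interleukin-1 family, at 154 and 41.8 CPM, and Il1f8, interleukin-36 beta, at 107 and 46.8 CPM. Il1f9, interleukin-36 gamma, was at 207 and 151 CPM. Defb14, a beta-defensin, was the 1 of 6 measured antimicrobial genes past 2-fold, at 68.7 and 31.5 CPM.

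The lists of general stress responses differed among themselves, to be read beside 1.42% of all genes higher and 2.29% lower. No AP-1 or immediate early gene of 15 and no heat shock chaperone of 12 was 2-fold apart between positive and Stfa3-zero cells. The medians of these lists were -0.25 and -0.22, beside -0.14 over all genes. Of 15 measured p53 targets 2 were at least 2-fold lower and none higher: Gadd45a was at 18.6 CPM in positive cells and 46.9 CPM in Stfa3-zero cells, and Gadd45b at 37.7 and 77.5 CPM. Cdkn1a, the p53-driven inhibitor of the cell cycle, was at 1335 and 1926 CPM, a ratio of 0.693 (0.673 to 0.714). Of 13 measured NRF2 targets and metallothioneins, Gsta4 and Gsto1 were higher and Txnrd1 lower, and 1 of 11 interferon response genes, Ifi27l2a, was higher. Some of these genes did vary with the number of Stfa3 counts: in cells with at least 20 counts and in cells with none, Fosl1, an AP-1 subunit, was at 173 and 441 CPM, Junb, another, at 209.7 and 435 CPM, and Mt1, a metallothionein, at 1265 and 585 CPM.

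Vdr, the vitamin D receptor, was at 37.7 CPM in positive cells and 47.7 CPM in Stfa3-zero cells, a ratio of 0.791 (0.657 to 0.947), and none of the 3 measured genes of the vitamin D list was 2-fold apart. Of 9 measured EGF receptor genes and ligands, Epgn, epigen, was higher at 151 and 74.3 CPM and Btc, betacellulin, lower at 11.9 and 66.7 CPM. Btc was counted in 2.01% of positive cells and 4.12% of Stfa3-zero cells. Among the remaining lists, to be read beside the 1.42% and 2.29% of all genes, none of 11 desmosome, 5 cell cycle and 14 glycolysis genes was 2-fold apart. Elf3 was the 1 higher of 21 differentiation transcription factors, Fabp5 the 1 higher and Krt2 the 1 lower of 15 early suprabasal genes, and S100a6, S100a8 and S100a9 were higher and S100a3 lower among 9 S100 genes. The other lowest ratios included Ifitm6 at 39.4 and 146 CPM, Cd82, a tetraspanin, at 61.9 and 178 CPM, and Id3, an inhibitor of helix-loop-helix factors, at 66.3 and 153 CPM.

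**Figure D3:**
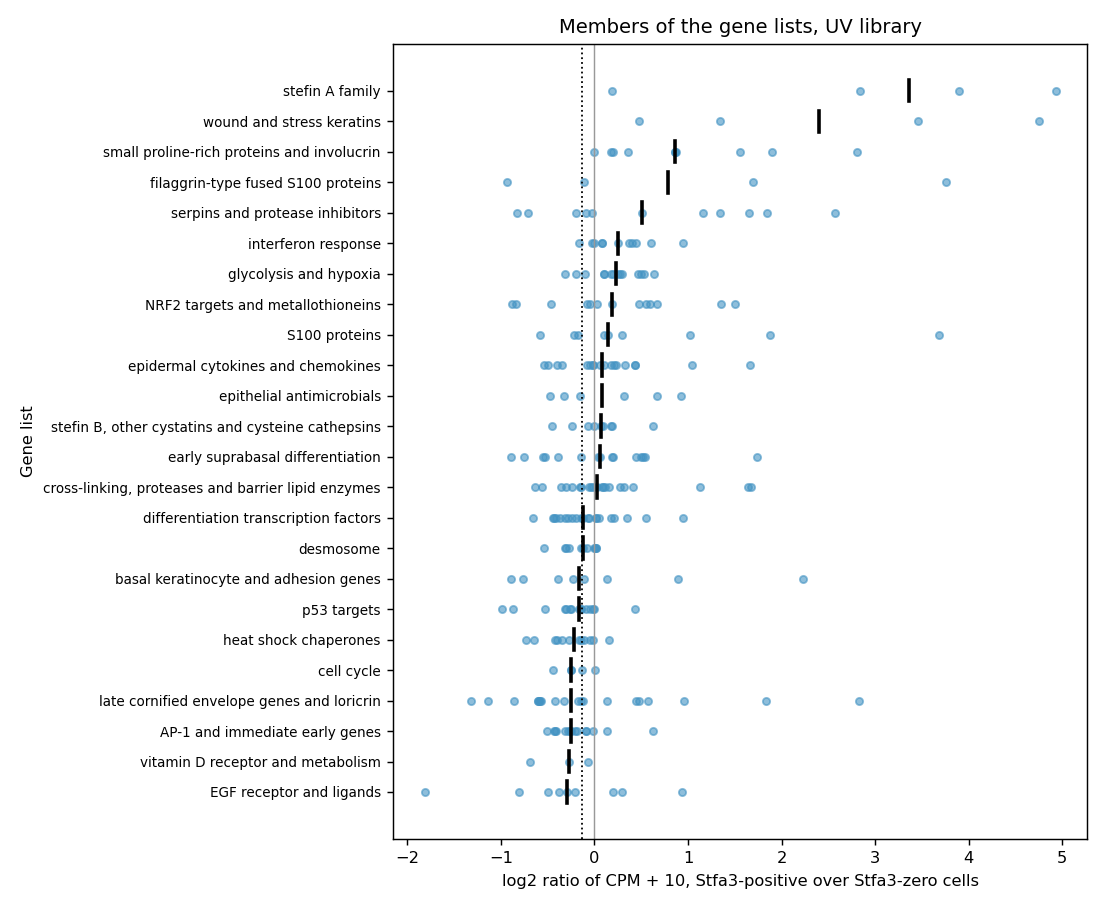
Log2 ratio of CPM plus 10, Stfa3-positive over Stfa3-zero cells of the UV library (x axis), for the measured members of each gene list (y axis); dots are genes, thick bars list medians, and the dotted line the median of all genes at -0.14. The stefin A and wound keratin lists lie furthest right, with medians of 3.37 and 2.40.

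Several of the leading genes were graded with the number of Stfa3 counts in a cell, and others were not. Suprabasal cells of the UV library were divided into those with 0, 1, 2, 3 to 4, 5 to 19 and at least 20 counts, which numbered 995, 193, 77, 66, 120 and 85 and had median totals between 10463 and 11828 counts. BC100530 was at 225, 576, 1589, 1416, 6474 and 18104 CPM from the lowest to the highest group. Krt6a was at 40.7, 91.9, 143, 305, 547 and 1123 CPM, and Sprr1b at 2342, 3371, 4292, 5738, 8076 and 8541 CPM. Most of the span of BC100530 lay above 4 Stfa3 counts, while Sprr1b differed little between the 2 highest groups.

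The cells just outside and just inside the threshold, with 1 and 2 Stfa3 counts, differed gene by gene: Stfa1 was at 225 CPM in cells with 2 counts and 75.6 CPM in cells with 1, and Rptn at 31.5 and 96.6 CPM, the reverse of its order over the whole range. Ifitm6 had no steady order, at 146, 33.8, 64.1, 17.4, 59.6 and 5.09 CPM from the lowest to the highest group. Krt77 ran the other way, at 6959 CPM in cells with no Stfa3 count, 5638 CPM with 3 to 4 and 934 CPM with at least 20, while Krt1 was at 2908, 4260 and 14392 CPM in the same groups. Cdkn1a was at 1926, 1611 and 859 CPM in these groups. Lor had no steady order, at 2586, 2116, 3305.5, 1673, 1493 and 593 CPM from the lowest to the highest group. It was counted in 63.1% of cells with no Stfa3 count and 74.1% of those with at least 20. Csta1 stayed between 531 and 871 CPM in all 6 groups.

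**Figure D4:**
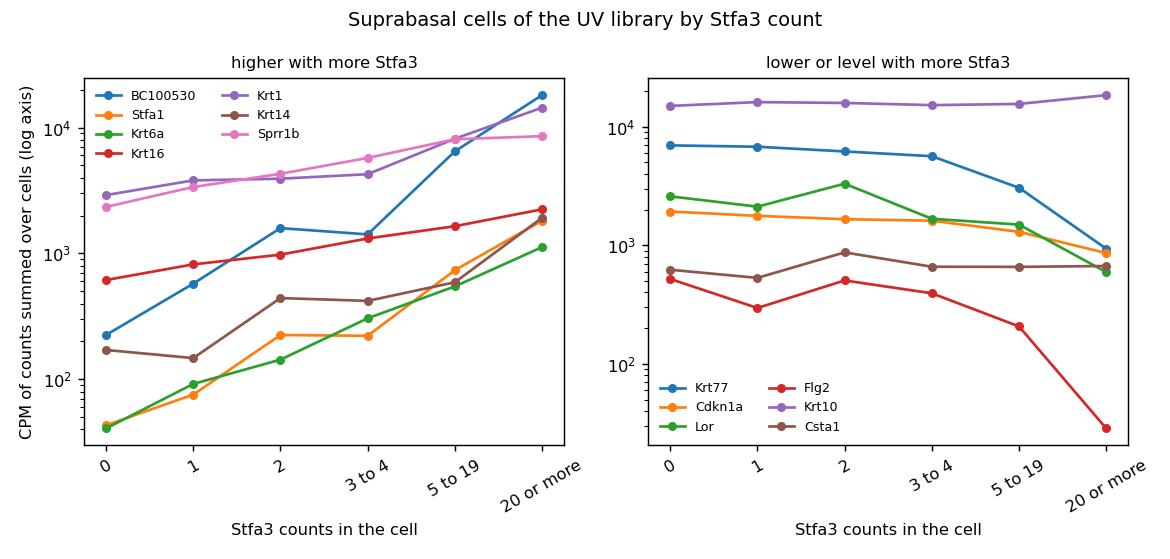
CPM of summed counts (y axis, log scale) in suprabasal cells of the UV library grouped by their number of Stfa3 counts (x axis), for genes higher (left) and for genes lower or level (right) in cells with more Stfa3. BC100530 spans 225 to 18104 CPM and Krt77 6959 to 934 CPM from no count to at least 20.

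Likeness to Stfa3 was taken as the share of thinned cells with a count in positive over that in Stfa3-zero cells of the UV library. Among genes counted in at least 20 cells, the highest ratio belonged to Stfa2, found in 26 of 348 and 3 of 995 cells. It was followed by S100a8, in 26 and 5 cells, Krt6b, in 79 and 21, Sprr2a3, in 52 and 15, and Rptn, in 60 and 20. Wfdc12, Serpinb3a, Krt7, Tdh and Tspan3 completed the first 10.

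In the other libraries positive cells were few and shared only part of this pattern. Positive cells of UV plus vitamin D exceeded their Stfa3-zero cells by 2-fold or more in 28 of 4909 genes (0.57%) and fell below them by as much in 137 (2.79%). In the control library 14 of 3543 genes (0.395%) were higher and 206 (5.81%) lower. BC100530 and Stfa1 were higher in positive than in Stfa3-zero cells of all 3 libraries, though in control both had too few counts to be among the 3543 genes. Csta1 was lower in positive cells of UV plus vitamin D, at 298 and 578 CPM, and of control, at 117 and 271 CPM.

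BC100530 in positive cells was at 199, 7168 and 147 CPM in UV plus vitamin D, UV and control, and in Stfa3-zero cells at 24.2, 225 and 9.25 CPM. It was counted in 22 of 61, 322 of 348 and 7 of 41 positive cells. Stfa1 was at 126, 780 and 125 CPM in positive cells and 19.98, 43.1 and 13.4 CPM in Stfa3-zero cells, and a single cell held 69.6% of its control counts. Both genes were thus above the Stfa3-zero cells in each library, with levels in the UV positive cells well above those of the others. In control, however, neither had enough counts to be among the genes measured. There BC100530 rests on 54 counts in positive cells, 27.8% of them in a single cell.

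Krt6b showed that few cells can carry a sum. In the UV plus vitamin D library its 207 counts in positive cells came from 2 cells; in the control library it had no count in positive or Stfa3-zero cells. Krt6a was at 120, 547 and 13.6 CPM in positive cells and 11.2, 40.7 and 16.5 CPM in Stfa3-zero cells; a single cell held 43.5% of the UV plus vitamin D counts, and the 13.6 CPM of control rest on 5 counts. Krt16 was at 583, 1574 and 995 CPM in positive cells and 322, 615 and 558 CPM in Stfa3-zero cells, so that its ratio was 1.81, 2.56 and 1.78. Sprr1b was at 1455, 6889 and 503 CPM and at 641, 2342 and 424 CPM. These cells carry the working name stefin-positive stressed suprabasal keratinocytes; in control the positive cells had no Krt6b and a Sprr1b ratio of 1.19 (1.02 to 1.37), so these 2 genes did not mark them there, and they are called by Stfa3 throughout.

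Summed over cells, the late cornified envelope genes and loricrin were lower in positive cells of the control and UV plus vitamin D libraries. All 14 measured late cornified envelope genes and loricrin were at least 2-fold lower in positive cells of the control library, beside 5.81% of all its genes, and 17 of 18 in UV plus vitamin D, beside 2.79%, with list medians of -2.33 and -2.10. In the UV library 2 of 20 were, beside 2.29% of all genes, with a median of -0.25, but with the threshold at 5 Stfa3 counts that median was -1.76. Lor was at 996, 1718 and 120 CPM in positive cells and 2988, 2586 and 1296 CPM in Stfa3-zero cells of UV plus vitamin D, UV and control. Its medians over positive and Stfa3-zero cells were 136 and 153 CPM in UV plus vitamin D and 0 and 42.9 CPM in control. A Lor count was present in 73.8% and 75.9% of these cells in UV plus vitamin D and in 48.8% and 50.45% in control. Single Stfa3-zero cells reached 86504 CPM in UV plus vitamin D and 67113 CPM in control. Flg was at 139, 1463 and 147 CPM in positive cells and 172, 445 and 79.8 CPM in Stfa3-zero cells, with 79.6% of the positive control counts in a single cell. Summed Krt14 was higher in positive cells of every library, at 430, 840 and 758 CPM against 167, 171 and 257 CPM in Stfa3-zero cells. The median positive cell had no Krt14 count in any library. It was counted in 32.8%, 45.7% and 46.3% of positive cells and in 28.9%, 32.6% and 36.6% of Stfa3-zero cells. In UV plus vitamin D the sum rests on 304 counts, and the highest positive cell was at 17722 CPM.

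Compared directly, positive cells of the UV library had 48.8-fold more BC100530 than those of control (37.4 to 65.0), 13.7-fold more Sprr1b (11.9 to 15.9) and 1.58-fold more Krt16 (1.42 to 1.76). Krt6b was at least 97.3-fold higher in UV, set against the limit of 3 counts in the control positive cells. Summed Lor was 14.4-fold higher (10.7 to 19.8) and summed Flg 9.97-fold higher (7.63 to 13.3). The median of Lor over positive cells was 97.6 CPM in UV and 0 in control, and a count was present in 65.2% and 48.8% of them. Flg was counted in 51.7% and 9.76%. The control sums rest on 44 counts of Lor and 54 of Flg, with 79.6% of those of Flg in a single cell. The Stfa3-zero cells differed in the same direction by less: BC100530 was 24.3-fold, Sprr1b 5.52-fold, Flg 5.57-fold and Lor 1.995-fold higher in UV than in control. TMM scaling would add 0.41 to the log2 ratios of the positive cells. The median positive cell had 6 Stfa3 counts in UV and 2 in control. These ratios therefore also describe cells that differ in Stfa3.

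Positive cells of UV plus vitamin D had lower levels than those of UV for the other 4 markers. BC100530 was 35.95-fold lower (30.5 to 42.7), Stfa1 6.19-fold lower (5.02 to 7.73), Sprr1b 4.73-fold lower (4.45 to 5.04) and Krt16 2.70-fold lower (2.44 to 2.99). The same 4 genes were also lower in Stfa3-zero cells of UV plus vitamin D than in those of UV. There BC100530 was at 24.2 and 225 CPM, Stfa1 at 19.98 and 43.1 CPM, Sprr1b at 641 and 2342 CPM and Krt16 at 322 and 615 CPM. Rptn was 20.5-fold lower (11.7 to 39.8), on 12 counts in 2 cells of UV plus vitamin D, and Flg 10.6-fold lower (8.64 to 13.02). Krt17 was at 1245 CPM in UV plus vitamin D, where a single cell held 53.75% of its counts, and 737 CPM in UV, so no direction is read from it. Sprr1a, at 33301 CPM in UV plus vitamin D and 30133 CPM in UV, was nearly level. Stfa3 itself was 4.44-fold lower in these cells (3.88 to 5.11), and since BC100530, Stfa1, Sprr1b and Krt16 were higher in cells with more Stfa3 within the UV library, the ratios describe cells that also differ in Stfa3. TMM scaling would lower these log2 ratios by a further 0.28.

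**Figure D5:**
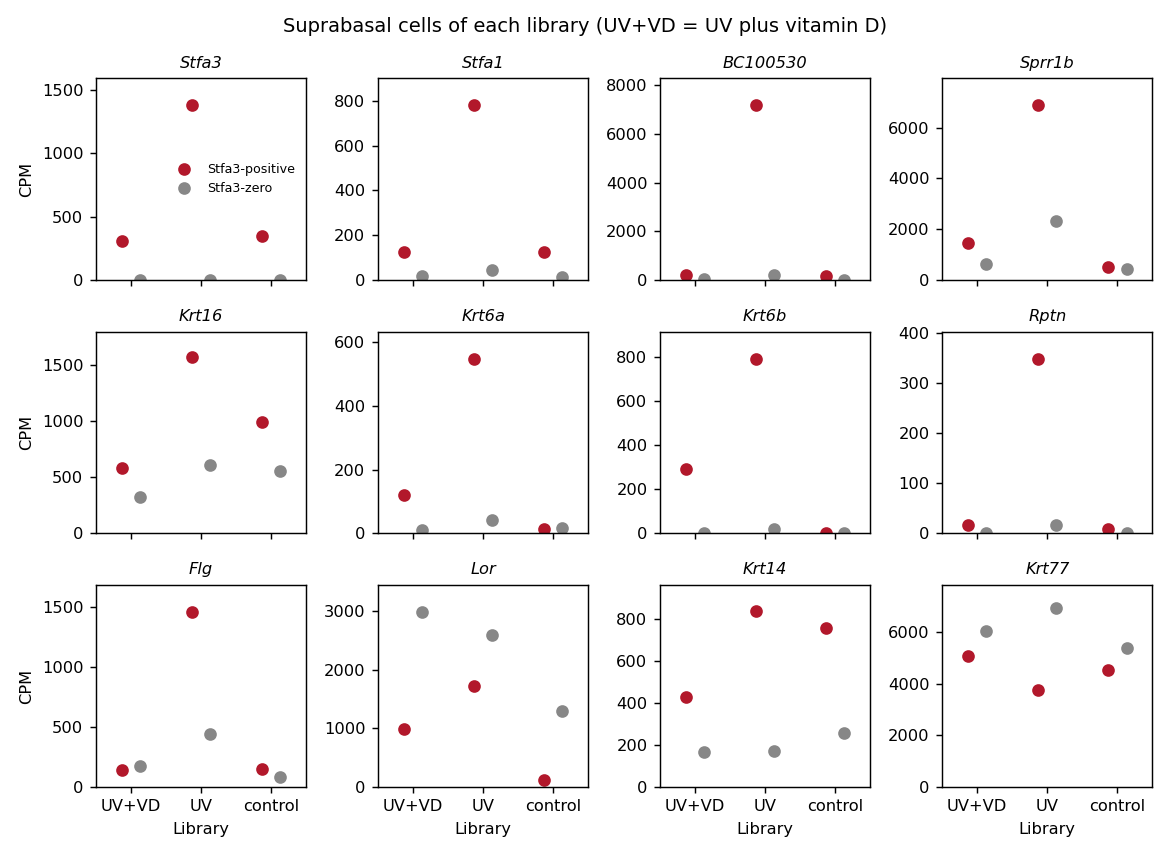
CPM of summed counts (y axes, starting at 0) of 12 genes in Stfa3-positive (red) and Stfa3-zero (grey) suprabasal cells of the UV plus vitamin D, UV and control libraries (x axis), 1 library per condition and no error bars. The stefin genes, Sprr1b, Krt6a and Rptn are highest in UV positive cells, while Lor is lower in positive than in Stfa3-zero cells of each library.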

How the data were processed

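The authors deposited a table of whole-number counts, genes by cell barcodes, for each library. FastQC, fastp, STAR and featureCounts are named without versions in the submitters' processing notes, as is GRCh38, which is human although the symbols are those of mouse genes. The sources used here do not say whether reads or molecules were counted; for reads, intervals would be too narrow. Doublets were not removed, and strand handling is not stated. Cells, members and the 24 gene lists were chosen with earlier results of these data known.

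Counts were summed over cells and scaled to CPM (Python 3.11.15, NumPy 2.4.6, pandas 2.3.3). Genes entered with at least 100 counts over both groups and at least 10 expected in each; genes of the selection rule were left out of counts of calls. CPM ratios have exact conditional and shares exact binomial (Clopper-Pearson) intervals (SciPy 1.17.1). List medians are of log2 ratios with 10 CPM added to both sides. Genes named are the 5 markers, the 12 highest and 12 lowest ratios past 2-fold with an interval beyond 1.5-fold and no cell holding over 20% of counts, and up to 4 most counted members of each list; other list members were named after their values were seen. The summing and calling were tested on simulated data. TMM factors came from edgeR 4.0.16, used on the summed counts with no test, and promoter alignments from Biopython 1.88.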

Additional observations from a re-analysis of the deposited data

How the results depend on the processing

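The libraries kept their order of positive shares under each of the 9 other settings. In UV plus vitamin D, UV and control the share was 5.12%, 35.2% and 2.56% with at least 1 Stfa3 count, 0.589%, 17.6% and 0.199% with at least 3, 0.218%, 13.4% and 0.0498% with at least 5, and 0.392%, 13.1% and 0.167% after thinning. The genes at least 2-fold higher in positive cells of the UV library numbered 2490 and those lower 4386 with no filter on low counts; 486 were lower with at least 5 Stfa3 counts and 98 with TMM scaling. With cells of exactly 1 Stfa3 count in place of the positive cells, an alternative added after seeing the data, 21 were higher and 36 lower. With at least 1 Stfa3 count, 68 genes were higher in UV plus vitamin D and 43 in control; with each cell weighted the same, 215 were lower in UV plus vitamin D. Leaving out cells with any Krt5 or Krt14 count, also added later, gave 63 higher and 161 lower in UV. No direction of the genes with the highest and lowest UV ratios changed under 10 settings; Lce1m ranged from -5.00 to -1.19 and Lce1c from -3.01 to -1.005 on the log2 scale, both lowest with at least 5 Stfa3 counts, and the late cornified envelope list from -1.76 to -0.12. The cause was not tested. No paired analysis was possible because each condition has 1 library. Counts limit the 41 control and 61 UV plus vitamin D positive cells most.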
